A study of Mus musculus with 18 samples.

Results

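Contacts across the HoxD cluster were compared by 5C between mouse ESCs that lack Eed (Eed-/-, 2 libraries) and wild-type ESCs (2 libraries), the 4 libraries taken for this comparison out of 18 in the series. The libraries were chosen by their labels, and every pair of 1 forward and 1 reverse primer fragment entered, which gave 4422 pairs of 133 EcoRI fragments. Eed-/- cells came from a mutant line for which the methods name 2 clones, without a label that ties a library to a clone. Wild-type cells were the line WTF18, so genotype and line of origin cannot be told apart. Both were grown undifferentiated on a layer of mitomycin-treated embryonic fibroblasts with LIF, and the fibroblasts were removed by reattachment to plastic before fixation. No treatment separated the groups, and 5C does not measure Eed itself, so the genotype rests on the labels.

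Eed is a core subunit of Polycomb-repressive complex PRC2, which trimethylates histone H3 on lysine 27 and without Eed loses this activity. In ESCs the mark covers the Hox clusters, whose genes encode homeodomain transcription factors of body axis and limb patterning and are kept silent before differentiation. The mark is bound by some forms of the other Polycomb complex, PRC1. In 5C, fixed chromatin is cut with EcoRI, ends held together are ligated, and a junction is copied only where a forward and a reverse primer anneal side by side.

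The region spans 666 kb of chromosome 2, from 74241352 to 74907778 (mm9). Fragments that overlap the stretch from Evx2 to Hoxd1 were taken as HoxD–Evx2, 23 fragments from 74483052 to 74604594. A further 40 fragments lie on the 5′ side, the side of Lnp and the GCR (a global control region of digit expression), and 70 on the 3′ side, the side of Mtx2 and the gene desert beyond it. Fragment lengths ran from 144 to 20865 bp with a median of 2393 bp, and 132 of the 133 fragments have the EcoRI site GAATTC at both ends. The cut ends of 6 fragments that hold an annotated gene start are shown because ligation at such ends is what 5C counts, with the site in capitals and the first bases of the fragment after it:
Evx2 fragment mHoxD_67, chr2:74483049-74483078, plus strand: GAATTCaataaaatttgaagggttttattg
Hoxd13 fragment mHoxD_70, chr2:74505527-74505556, plus strand: GAATTCtaagtctctgatgctgccccaaga
Hoxd11 fragment mHoxD_75, chr2:74516249-74516278, plus strand: GAATTCtgcctttggagcccagagttcagt
Hoxd8 fragment mHoxD_80, chr2:74542112-74542141, plus strand: GAATTCaatttctcctgccccatcccccgg
Hoxd3 fragment mHoxD_82, chr2:74548283-74548312, plus strand: GAATTCacatctagtgtctcctccatatct
Hoxd1 fragment mHoxD_94, chr2:74598976-74599005, plus strand: GAATTCaggcatggaatgaaatgaccagag

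CpG-rich DNA is where PRC2 is found in ESCs, and the cluster is rich in it. The median fragment held 26.8 CpG per kb in HoxD–Evx2, against 6.80 in the 5′ flank and 9.39 in the 3′ flank. The promoters of Hoxd13 and Hoxd8 differ in this respect, and both lie in fragments whose contacts were lower without Eed (values below). They are taken from RefSeq (GRCm38.p6), were placed on mm9 by an exact match, run 5′ to 3′ from 250 bases before to 50 after the start, and have each CG in capitals:
Hoxd13 promoter, chr2:74506032-74506331, plus strand: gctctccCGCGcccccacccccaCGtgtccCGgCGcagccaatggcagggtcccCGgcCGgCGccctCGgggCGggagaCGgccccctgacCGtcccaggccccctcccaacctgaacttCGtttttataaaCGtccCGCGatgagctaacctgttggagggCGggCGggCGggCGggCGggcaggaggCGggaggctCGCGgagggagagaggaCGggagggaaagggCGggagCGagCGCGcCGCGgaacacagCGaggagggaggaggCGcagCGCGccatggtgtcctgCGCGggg
Hoxd8 promoter, chr2:74542422-74542721, plus strand: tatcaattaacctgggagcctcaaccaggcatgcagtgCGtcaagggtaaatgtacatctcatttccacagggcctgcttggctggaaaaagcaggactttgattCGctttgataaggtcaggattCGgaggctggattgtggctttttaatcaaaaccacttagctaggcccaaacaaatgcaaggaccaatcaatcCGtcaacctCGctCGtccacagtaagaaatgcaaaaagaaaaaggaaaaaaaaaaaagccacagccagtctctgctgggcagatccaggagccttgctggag
The letters CG, which read the same on both strands, occur 37 times in the Hoxd13 window, a count reached by 5.58% of 32851 promoter windows of this length. The Hoxd8 window holds 6, a count reached by 56.4% of them, although the whole Hoxd8 fragment has 89.5 CpG per kb, the highest of the 23.

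The deposited values are the reads of a fragment pair divided by all reads of the run and multiplied by 1000, here called reads per 1000. The runs held 1086406 and 906901 reads for Eed-/- cells and 653441 and 692267 for wild-type cells, within 216419 to 1708047 over the 14 ESC libraries. Beside these 4 libraries, the 14 hold 2 of undifferentiated OS25 ESCs and 2 of OS25 cells differentiated with retinoic acid (D3). They also hold 3 of Ring1B-/- ESCs, 2 of such cells given back Ring1B and 1 of such cells given a Ring1B mutant (labelled Ring1BG53). At these depths 3 reads, the floor used here for a pair listed at 0, correspond to 0.00276 and 0.00331 reads per 1000 in Eed-/- libraries and 0.00459 and 0.00433 in wild-type libraries. Since 5C products are amplified before they are read, a floor stands for the error of counting alone. Among the 4251 pairs whose midpoints were 10 kb or more from each other, no read was found for 2664 and 2565 in Eed-/- libraries, and for 2515 and 2541 in wild-type libraries. Single pairs were poorly reproduced, since the correlation of log2 values over these pairs was 0.39 between the Eed-/- libraries, 0.42 between the wild-type libraries and 0.33 to 0.35 between groups. Results below therefore rest mainly on means over many pairs.

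Contacts within HoxD–Evx2 were strongly reduced in Eed-/- cells. The mean over 105 pairs at least 10 kb apart was 0.365 and 0.468 reads per 1000 in Eed-/- libraries, against 1.27 and 1.47 in wild-type libraries. Both Eed-/- values lay below both wild-type values, at 30.4% of the wild-type mean. By limma the log2 difference was -1.68 ± 0.32 (SE; 95% interval -2.37 to -0.98), at an adjusted p = 0.00137. HoxD–Evx2 took 8.16% and 8.65% of all reads in pairs at least 10 kb apart in Eed-/- libraries, and 22.7% and 24.7% in wild-type libraries.

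The flanks did not share this reduction. Inside the 5′ flank the mean was 0.147 and 0.164 reads per 1000 in Eed-/- libraries, against 0.126 and 0.130 in wild-type libraries. Inside the 3′ flank it was 0.130 and 0.176 in Eed-/- libraries, against 0.118 and 0.130 in wild-type libraries. Neither difference passed the test, at log2 0.25 ± 0.17 (adjusted p = 0.392) and 0.25 ± 0.21 (adjusted p = 0.409) by limma. Their size depended on the scaling. Scaled to the pairs at least 10 kb apart, both flanks were higher in Eed-/- cells (log2 0.46 and 0.46, adjusted p = 0.026 each), while with factors for each primer the flanks stood at -0.048 and 0.040.

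**Figure D1:**
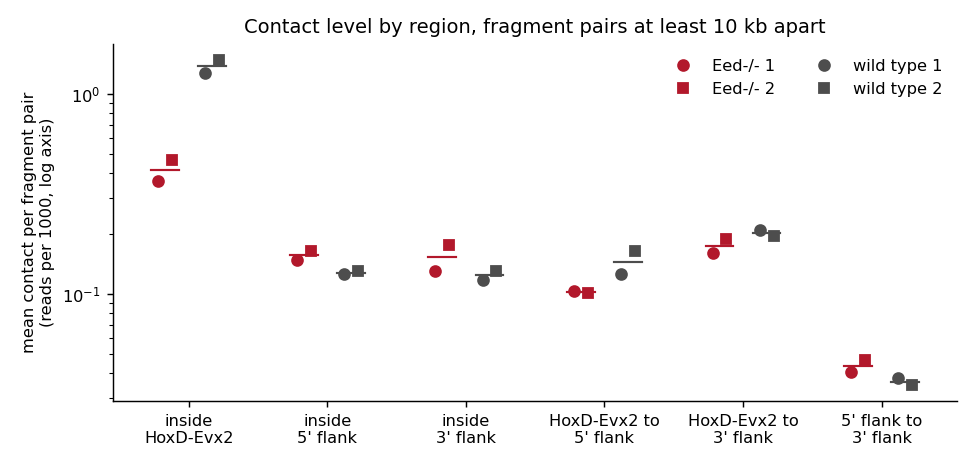
Mean contact per fragment pair (reads per 1000, log axis) in 6 regional classes, with Eed-/- libraries on the left of each class and wild-type libraries on the right; points are libraries and bars are group means. Only inside HoxD–Evx2 are the groups far apart, at 0.365 and 0.468 in Eed-/- cells and 1.27 and 1.47 in wild-type cells.

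Contacts that leave the cluster changed less. Between HoxD–Evx2 and the 5′ flank the mean was 0.103 and 0.101 reads per 1000 in Eed-/- libraries, against 0.125 and 0.163 in wild-type libraries. Toward the 3′ flank it was 0.160 and 0.187 in Eed-/- libraries, against 0.208 and 0.194 in wild-type libraries. Both sat lower in the 2 Eed-/- libraries, but the differences of -0.42 ± 0.23 and -0.19 ± 0.26 were within the error (limma adjusted p = 0.259 and 0.578). Toward the 5′ flank the order rested on 1 pair, the start of Hoxd3 (mHoxD_82) with mHoxD_22, 230 kb away. It held 7.31 and 5.14 reads per 1000 in Eed-/- libraries, against 9.23 and 33.9 in wild-type libraries, where it made 45.2% of the second library's sum. Without it the means were 0.0870 and 0.0904 in Eed-/- libraries and 0.106 and 0.0894 in wild-type libraries, and the groups overlapped. Contacts from flank to flank, over the cluster, were at 0.0405 and 0.0469 in Eed-/- libraries and 0.0379 and 0.0349 in wild-type libraries (log2 0.18 ± 0.19, adjusted p = 0.515).

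Because a total of reads couples all regions of a library, the cluster was also set against the flanks inside each library. This domain enrichment is the mean log2 ratio of HoxD–Evx2 to flank pairs over 5 matched distance classes from 10 to 110 kb, and no scaling of a library can move it. It was 1.03 and 0.90 in Eed-/- libraries, against 3.11 and 3.21 in wild-type libraries. The groups were far apart relative to their spread, with a difference of -2.20 ± 0.40 (SE; limma adjusted p = 0.00137). Contacts in the cluster were thus 1.95 times those of the flanks at equal distance in Eed-/- cells (95% interval 1.27 to 3.01) and 8.96 times in wild-type cells (5.81 to 13.8), with intervals from the spread over all ESC libraries. The enrichment of Eed-/- cells was reduced, and the interval of its log2 value, from 0.34 to 1.59, lay above 0. Cluster fragments are longer than those of the 5′ and 3′ flank, with medians of 3630, 1793 and 2532 bp. Whether 0 is the level without a domain was not tested. Eed-/- libraries had the lowest 2 values of the 14 ESC libraries, the other 12 reaching from 1.35 to 3.61. Among these 12, the OS25 libraries differentiated with retinoic acid had 1.41 and 1.67.

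The reduction was found in each of the 5 distance classes from 10 to 110 kb within the cluster, at 19.3% to 37.3% of wild type. In pairs 10 to 20 kb apart the mean was 0.682 and 0.694 reads per 1000 in Eed-/- libraries, against 1.91 and 2.45 in wild-type libraries. In pairs 80 to 110 kb apart, close to the full length of the cluster, it was 0.266 and 0.414 in Eed-/- libraries, against 1.35 and 1.13 in wild-type libraries. Wild-type levels thus changed little with distance beyond 20 kb and remained high from one end of the cluster to the other. The log2 differences were -1.62, -1.46, -1.81, -2.30 and -1.84 in the classes from 10, 20, 40, 60 and 80 kb, over 17, 36, 29, 13 and 10 pairs, and all 5 passed the test (limma adjusted p = 0.00038 to 0.0038). The fall to 19.3% of wild type at 60 to 80 kb and that to 37.3% at 20 to 40 kb have 95% intervals that overlap, from -3.15 to -1.44 and from -2.19 to -0.72 on the log2 scale, and their difference was not tested.

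Relative to flank pairs of the same distance, cluster pairs stood 0.38 to 1.54 log2 units higher over the 5 classes in Eed-/- libraries, against 2.54 to 3.81 in wild-type libraries. The 2 Eed-/- libraries differed most at 60 to 80 kb, where the first had its highest value, 1.54, and the second its lowest, 0.38. The number of cluster pairs above the median flank pair of their class was 65 and 57 of 105 in Eed-/- libraries, against 92 and 97 in wild-type libraries.

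**Figure D2:**
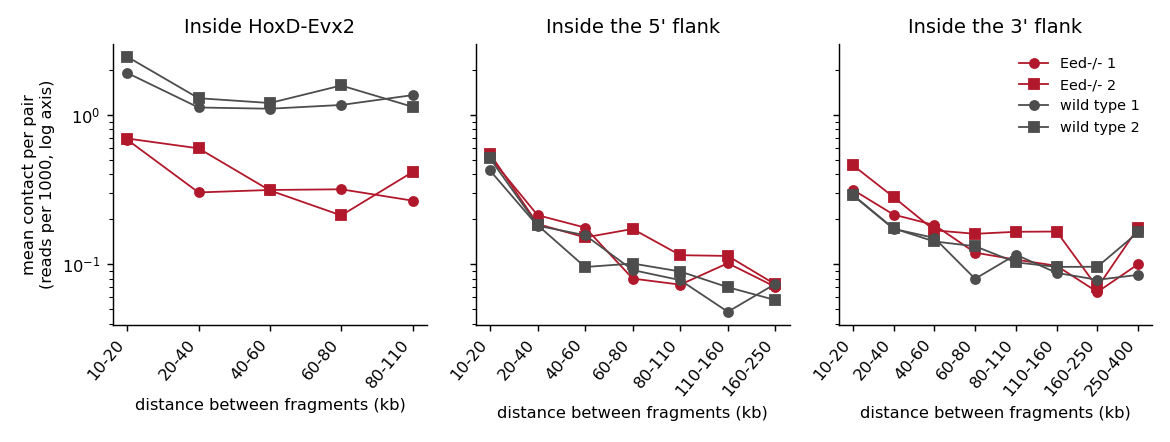
Mean contact per pair (reads per 1000, log axis) by distance between fragments (kb) inside HoxD–Evx2, the 5′ flank and the 3′ flank, 1 line per library. The Eed-/- lines lie below the wild-type lines in all 5 classes of the cluster. In the flanks both Eed-/- lines lie above both wild-type lines in 3 of 7 classes on the 5′ side and 4 of 8 on the 3′ side, and below in 1 on the 3′ side.

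Outside the cluster 1 further class passed the test. Of 40 region and distance classes tested, 6 (15%) were lower in Eed-/- cells and 0 higher by limma at an adjusted p under 0.05, and 5 of the 6 are those of the cluster. The sixth was contacts of HoxD–Evx2 with the 3′ flank at 10 to 20 kb, over 6 pairs, with 0.137 and 0.224 reads per 1000 in Eed-/- libraries and 0.545 and 0.382 in wild-type libraries (-1.28 ± 0.31, adjusted p = 0.00376). Of all 16 classes between cluster and flanks 13 had values below 0. Among them, contacts with the 3′ flank beyond 400 kb, over 5 pairs, were at 0.0858 and 0.118 reads per 1000 in Eed-/- libraries, against 0.360 and 0.186 in wild-type libraries (log2 -1.21, adjusted p = 0.196). Contacts with the 5′ flank were at -0.63 at 80 to 110 kb and -0.64 at 160 to 250 kb (adjusted p = 0.263 each). Inside the flanks 14 of 15 classes had values above 0, none past the threshold and 1 at an unadjusted p under 0.05, contacts of the 5′ flank at 110 to 160 kb. These had 0.101 and 0.114 reads per 1000 in Eed-/- libraries, against 0.0480 and 0.0700 in wild-type libraries (adjusted p = 0.154).

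Pairs under 10 kb apart, where neighbouring fragments and incomplete digestion weigh most, differed less in the cluster. Inside HoxD–Evx2 their mean over 27 pairs was 1.94 and 1.72 reads per 1000 in Eed-/- libraries, against 2.18 and 2.32 in wild-type libraries, or 81.3% of wild type. Inside the flanks such pairs went the other way. They stood at 128% of wild type in the 5′ flank, where the groups overlapped. In the 3′ flank they stood at 133%, with both Eed-/- libraries higher. Over the whole region, all 171 pairs under 10 kb took 481 and 373 of every 1000 reads in Eed-/- libraries and 377 and 322 in wild-type libraries. The share left for longer contacts thus differed between libraries.

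A profile of local contacts, the mean over pairs 10 to 60 kb apart whose middle falls within 20 kb of a position, places the reduction along the chromosome. In wild-type libraries it peaked inside the cluster at 1.36 and 1.50 reads per 1000, 5.96 and 6.81 times the median of 63 positions. In Eed-/- libraries the highest position inside the cluster was at 0.423 and 0.704, at 74511352 between Hoxd13 and Hoxd12 in both. The first of these was second to a position in the 5′ flank, with 0.449. Of the 12 positions inside the cluster both Eed-/- libraries lay below both wild-type libraries at 11, from 74491352 to 74591352, and at the last, on Hoxd1, they did not. Over all 63 positions this order held at 22.2%, and the opposite order, with Eed-/- libraries higher, held at 49.2%, at 31 positions that all lay outside the cluster. At 74661352, in front of Mtx2, the profile was at 0.378 and 0.536 in Eed-/- libraries, against 0.167 and 0.284 in wild-type libraries.

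**Figure D3:**
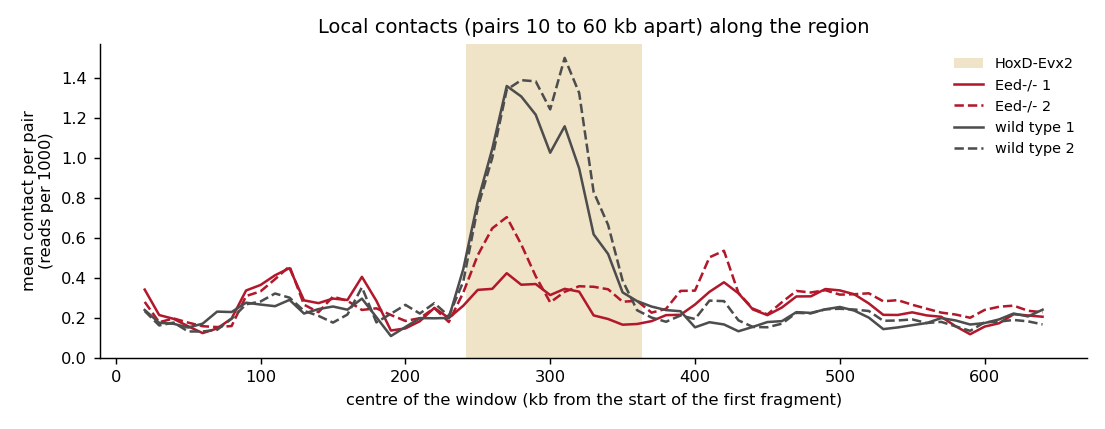
Mean contact (reads per 1000) of pairs 10 to 60 kb apart along the region, in windows centred at the given distance (kb) from the start of the first fragment; red lines are Eed-/- libraries, grey lines wild-type libraries, and HoxD–Evx2 is shaded. Wild-type peaks of 1.36 and 1.50 in the cluster stand above the Eed-/- libraries, which reach 0.423 and 0.704 there.

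Each fragment was next taken as an anchor and its contacts were averaged over the partners in one region. All 23 anchors of HoxD–Evx2 had lower values with their partners in the cluster in Eed-/- cells. Their log2 differences ran from -2.67 to -0.96, with a median of -1.66. In 22 of the 23 both Eed-/- libraries lay below both wild-type libraries, against 23.8% of all 399 anchor readouts. Of these 23, 15 passed the test, against 4.66% called lower and 0.518% called higher over all 386 anchor readouts tested. Anchors share pairs with each other and are not independent of the regional mean. The number also rests on every library, as it was 6 without the first Eed-/- library, 5 without the second, 5 without the first wild-type library and 0 without the second. It fell to 3 when pairs under 10 kb were kept.

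Evx2 (fragment mHoxD_67, 74483052 to 74498311), a homeobox gene next to the 5′ end of the cluster, had 0.940 and 1.37 reads per 1000 with cluster partners in Eed-/- libraries, against 2.98 and 3.12 in wild-type libraries. Its groups did not overlap, and its log2 difference was -1.41 ± 0.44 (adjusted p = 0.0678). Beside it, on the side of Hoxd13, the intergenic fragment mHoxD_68 fell to 0.154 and 0.102 in Eed-/- libraries, against 0.723 and 0.543 in wild-type libraries (-2.15 ± 0.47, adjusted p = 0.0101). Hoxd13, the most 5′ Hoxd gene and a gene of digit formation, had 0.539 and 0.810 in Eed-/- libraries, against 2.31 and 1.98 in wild-type libraries. It was 3.18 times lower and passed the test (-1.66 ± 0.44, adjusted p = 0.0265).

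The start of Hoxd12 had low values in all libraries and the groups overlapped, at 0.000115 and 0.131 in Eed-/- libraries against 0.122 and 0.330 in wild-type libraries (adjusted p = 0.073). The 3′ part of this gene (mHoxD_73) fell to 0.273 and 0.126 in Eed-/- libraries, against 0.860 and 0.760 in wild-type libraries (4.06 times lower, adjusted p = 0.0103). Hoxd11 (mHoxD_75), a gene of forearm and digit patterning, was the strongest anchor of the cluster in wild-type cells. It had 0.936 and 1.50 reads per 1000 in Eed-/- libraries, against 3.62 and 3.85 in wild-type libraries, without overlap, and did not pass the test (-1.64 ± 0.49, adjusted p = 0.0559). The starts of Hoxd10 and Hoxd9 lie in no fragment of the design and were not analysed here, and the fragment with the 3′ end of Hoxd9 (mHoxD_78) fell to 0.240 and 0.311 in Eed-/- libraries, against 0.970 and 1.09 in wild-type libraries (-1.84 ± 0.40, adjusted p = 0.0101).

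Hoxd8 (mHoxD_80, 74542115 to 74544638), in the middle of the cluster, had the largest difference of the 23 anchors. Its contacts with the cluster were at 0.302 and 0.151 reads per 1000 in Eed-/- libraries, against 1.38 and 1.58 in wild-type libraries, 6.54 times lower (-2.67 ± 0.49, adjusted p = 0.00293). The fragment next to it, mHoxD_81, which holds the 3′ end of the gene, had the smallest, with 0.417 and 0.539 in Eed-/- libraries and 1.24 and 0.715 in wild-type libraries (-0.96 ± 0.43, adjusted p = 0.275). The difference between these neighbours was not tested.

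Toward the 3′ end, where the genes act earliest and most anteriorly in the embryo, Hoxd3 (mHoxD_82) fell to 0.436 and 0.452 reads per 1000 in Eed-/- libraries, against 1.65 and 1.55 in wild-type libraries (-1.80 ± 0.43, adjusted p = 0.0144). Hoxd4 (mHoxD_85) had 0.475 and 0.474 in Eed-/- libraries, against 0.886 and 1.27 in wild-type libraries, and did not pass (-1.13 ± 0.41, adjusted p = 0.149). The adjoining fragment with Mir10b, a microRNA gene inside the Hox cluster, fell to 0.265 and 0.219 in Eed-/- libraries, against 0.707 and 0.900 in wild-type libraries (-1.65 ± 0.40, adjusted p = 0.0144). Inside the long Hoxd3 transcription unit, mHoxD_89 fell to 0.315 and 0.481 in Eed-/- libraries, against 1.62 and 2.45 in wild-type libraries (-2.30 ± 0.43, adjusted p = 0.00293). Hoxd1, the last gene, fell to 0.326 and 0.292 in Eed-/- libraries, against 0.986 and 0.875 in wild-type libraries (-1.53 ± 0.41, adjusted p = 0.0305). Called anchors thus lay along the whole cluster, from mHoxD_68 beside Evx2 to Hoxd1.

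**Figure D4:**
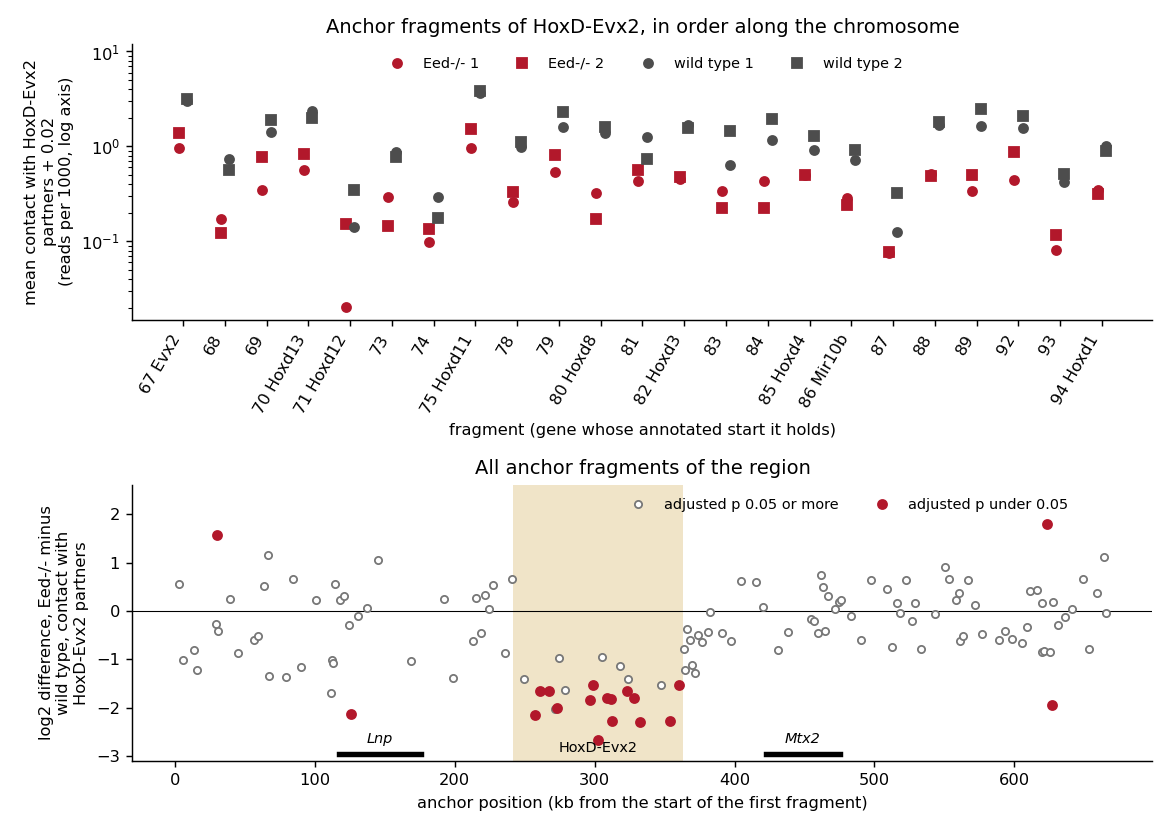
Top, mean contact of each HoxD–Evx2 anchor with partners in the cluster (reads per 1000 plus 0.02, log axis), Eed-/- libraries in red left of wild-type libraries in grey. Bottom, log2 difference (Eed-/- minus wild type) of contacts with cluster partners for every anchor against its distance (kb) from the start of the first fragment; filled points have an adjusted p under 0.05, and all 23 anchors of the shaded cluster lie below 0.

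Split by position, contacts between the 5′ genes (Evx2 to Hoxd12, 7 fragments) and the 3′ genes (Hoxd3 to Hoxd1, 11 fragments) had 0.247 and 0.191 reads per 1000 in Eed-/- libraries, against 0.819 and 0.952 in wild-type libraries, or 24.7% of wild type over 38 pairs. Contacts of the 5′ genes with the middle of the cluster (Hoxd11 to Hoxd8, 5 fragments) had 0.478 and 0.975 in Eed-/- libraries, against 1.69 and 1.64 in wild-type libraries, or 43.6% over 16 pairs. The other 4 combinations stood between 24.6% and 32.7% of wild type, and in all 6 the groups did not overlap. These blocks were set after the values had been seen and were not tested.

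Among the 23 cluster anchors, the log2 difference had a Pearson correlation of -0.44 with the CpG per kb of the fragment (Spearman -0.26), -0.49 with its GC content (Spearman -0.38), 0.27 with its length and -0.11 with the wild-type level. The anchors share partners and libraries, so these values are a description of 23 fragments.

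Single fragment pairs point the same way, at lower precision. In 74 of the 105 cluster pairs (70.5%) both Eed-/- libraries lay below both wild-type libraries, against 10.1% over all 4251 pairs, and in 1 pair both lay above, against 8.56%. Medians over the cluster pairs were 0.203 reads per 1000 in Eed-/- cells and 0.853 in wild-type cells, and 17 pairs held no read in either Eed-/- library, against 2 in wild-type libraries. With 2 libraries a group no single pair passed the test over 3484 pairs (limma, 0 lower and 0 higher), while at an unadjusted p under 0.05 there were 180 lower (5.17%) and 148 higher (4.25%) pairs. Of the 104 cluster pairs tested, 29 were among the 180 and 0 among the 148. Counts past the threshold depended on the model, with 126 lower and 108 higher by limma voom on the reads and 74 and 53 with only these 4 libraries in the fit.

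The 10 cluster pairs with the highest mean in undifferentiated OS25 ESCs, another line, were followed, so that neither Eed-/- nor wild-type values chose them. In 9 of the 10 both Eed-/- libraries were below both wild-type libraries, an order that held in 70.5% of all 105 cluster pairs. Together the 10 pairs held 12.1 and 18.5 reads per 1000 in Eed-/- libraries, against 41.8 and 43.2 in wild-type libraries. The highest, Evx2 with Hoxd13 (mHoxD_67 and mHoxD_70), had 1.57 and 3.55 in Eed-/- libraries, against 7.97 and 6.04 in wild-type libraries. Hoxd11 with mHoxD_88, annotated to Hoxd3 and Hoxd4, was the most reduced, with 0.338 and 1.23 in Eed-/- libraries, against 3.82 and 4.07 in wild-type libraries. The exception was Evx2 with Hoxd11, with 2.38 and 6.05 in Eed-/- libraries, against 5.09 and 5.66 in wild-type libraries, 78.4% of the wild-type mean. Its log2 difference of -0.50 changed sign without the first Eed-/- library, to 0.17, and with factors for each primer, to 0.23.

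The cluster pair with the smallest unadjusted p joined the intergenic fragment mHoxD_69, 5′ of Hoxd13, to mHoxD_89 inside Hoxd3, 71.6 kb away. It had no read in either Eed-/- library, against 618 and 2071 reads, or 0.946 and 2.99 reads per 1000, in wild-type libraries. With 3 reads per library as the floor, which covers counting error alone, it was at least 649-fold lower. By the fit it was 85.3-fold lower, but it did not pass the test (unadjusted p = 4.25e-05, limma adjusted p = 0.148). The next 3 also lay in the cluster, and mHoxD_73 with mHoxD_78 and mHoxD_68 with mHoxD_92 likewise had no read in Eed-/- libraries. The rest of the 10 lower pairs with the smallest p lay outside it. All but 1 of these joined the cluster to the 3′ flank and also had no read in Eed-/- libraries. The other, mHoxD_27 with mHoxD_49 inside the 5′ flank, had 1 and 0 reads there. Among higher pairs the smallest p was that of mHoxD_84, in Hoxd3, with mHoxD_170 in the 3′ desert, which had 441 and 1196 reads in Eed-/- libraries and 0 and 0 in wild-type libraries.

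In 20-kb bins, 5 of 557 bin pairs (0.898%) were lower in Eed-/- cells and 2 (0.359%) higher at an adjusted p under 0.05. Lower were the bin of Hoxd11 to Hoxd9 with that of Hoxd1, at 0.0492 and 0.0489 reads per 1000 in Eed-/- libraries against 0.326 and 0.486 in wild-type libraries (-2.60 ± 0.48, adjusted p = 0.0236), and the same bin with that of Hoxd4 and Mir10b (0.136 and 0.0722 in Eed-/- libraries against 0.552 and 1.01 in wild-type libraries, adjusted p = 0.0436). Evx2 fell in its bin pair with the stretch between Hoxd3 and Hoxd1 (0 and 0.0853 in Eed-/- libraries against 0.542 and 0.558 in wild-type libraries, adjusted p = 0.0436). It also fell with a bin 3′ of Hoxd1 (no read in Eed-/- libraries against 0.0860 and 0.133 in wild-type libraries, adjusted p = 0.0236). The fifth was a pair of neighbouring bins in the 5′ flank, 74301352 to 74341351, with no read in Eed-/- libraries against 0.190 and 0.113 in wild-type libraries. Its direction changed, to 0.29 on the log2 scale, when pairs under 10 kb were included. Higher were a pair in the 5′ flank over 3 fragment pairs (0.317 and 0.186 reads per 1000 in Eed-/- libraries against no read in wild-type libraries) and a pair of the interval before Mtx2 with Mtx2 (0.223 and 0.275 in Eed-/- libraries against 0 and 0.0396 in wild-type libraries, adjusted p = 0.0361). None of these calls outlived every setting, as leaving out a library left 0 or 1 lower and 0 higher, and a shift of the bins by 10 kb left 0 lower and 2 higher.

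**Figure D5:**
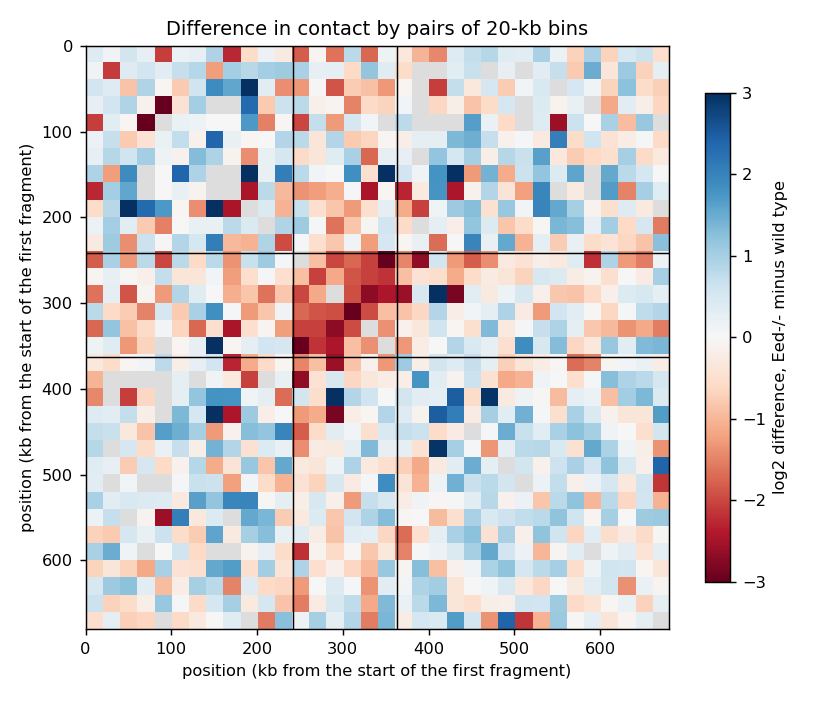
Log2 difference (Eed-/- minus wild type) of the mean contact between 20-kb bins, red for lower and blue for higher in Eed-/- cells; axes give the distance (kb) from the start of the first fragment, lines bound HoxD–Evx2, and grey bins were not tested. The square of the cluster is red almost throughout, while both flanks hold a mixture of both colours.

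Anchors outside the cluster were grouped by their distance from its borders. Within 50 kb of the 3′ border 12 of 13 anchors had lower contacts with cluster partners, with a median log2 difference of -0.60, and in 9 the groups did not overlap, but none passed the test. Within 50 kb of the 5′ border 4 of 10 were lower, with a median of 0.14, and the groups did not overlap in 3, with Eed-/- lower in 2 and higher in 1. Farther out on the 5′ side, 12 of 20 anchors at 100 to 200 kb were lower (median -0.40, 8 without overlap) and 5 of 7 at 200 to 400 kb (median -0.42, 3 without overlap). On the 3′ side the medians were -0.16 at 50 to 100 kb, 0.16 at 100 to 200 kb and -0.12 at 200 to 400 kb, so the values had no steady course with distance. Over all 399 anchor readouts, groups did not overlap with Eed-/- lower in 23.8% and with Eed-/- higher in 19.8%. The difference between the sides was not tested.

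Only 3 anchor readouts outside the cluster were lower and 2 higher past the threshold. The fragment mHoxD_37, in the body of Lnp (a gene beside the digit enhancers), had no read with cluster partners in Eed-/- libraries, against 0.0601 and 0.0760 reads per 1000 in wild-type libraries (adjusted p = 0.0144). In the 3′ desert, mHoxD_173 had 0 and 0.00616 with cluster partners in Eed-/- libraries, against 0.0780 and 0.0584 in wild-type libraries. The nearby fragment mHoxD_170, with mHoxD_172 between the 2, went opposite ways. It was higher with cluster partners (0.106 and 0.206 in Eed-/- libraries against 0.0576 and 0.0104 in wild-type libraries). With the 5′ flank it was lower (0.00712 and 0.0134 in Eed-/- libraries against 0.0455 and 0.101 in wild-type libraries). The other rise was that of mHoxD_8, in the GCR window, with cluster partners, at 0.131 and 0.152 in Eed-/- libraries against 0.0219 and 0.0495 in wild-type libraries.

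For the genes that border the cluster, levels with it overlapped between the groups. Over 8 fragments of Lnp and 93 pairs, contacts with HoxD–Evx2 were at 0.0996 and 0.0895 reads per 1000 in Eed-/- libraries, against 0.104 and 0.0982 in wild-type libraries. For 11 fragments of Mtx2, which encodes a protein of the mitochondrial outer membrane, they were at 0.118 and 0.139 in Eed-/- libraries, against 0.138 and 0.131 in wild-type libraries. Contacts of Mtx2 fragments within the 3′ flank, pairs among themselves included, were higher in both Eed-/- libraries, at 0.140 and 0.226 against 0.106 and 0.116 in wild-type libraries. The same order held for Mtx2 with the 5′ flank, at 0.0614 and 0.0741 in Eed-/- libraries against 0.0467 and 0.0304 in wild-type libraries. It also held for Lnp with the 5′ flank (0.139 and 0.148 against 0.109 and 0.119) and with the 3′ flank (0.0389 and 0.0573 against 0.0353 and 0.0255). These sets were not tested, and the annotated starts of Lnp and Mtx2 lie in no fragment of the design.

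Among pairs at least 10 kb apart, the highest value in each of the 4 libraries was no cluster pair but Hoxd4 (mHoxD_85) with mHoxD_163, a fragment of the 3′ desert 287 kb away. It held 26.9 and 23.0 reads per 1000 in Eed-/- libraries, against 40.4 and 38.5 in wild-type libraries, which made 20.9% and 15.3% of all reads between HoxD–Evx2 and the 3′ flank in Eed-/- libraries and 24.2% and 24.7% in wild-type libraries. Without this pair the mean between cluster and 3′ flank was 0.127 and 0.159 in Eed-/- libraries and 0.158 and 0.146 in wild-type libraries, and the groups overlapped.

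Windows were set around 4 pairs of FISH probes, with their positions read by eye from the drawn probes, and 1 pair passed the test. This was Hoxd13 (74472944 to 74511688) with Hoxd3 (74565758 to 74606639), windows that reach past the 2 borders of HoxD–Evx2. Of the 6 fragments in the Hoxd13 window, mHoxD_65 and mHoxD_66 lie in the 5′ flank. Of the 7 in the Hoxd3 window, mHoxD_96 and mHoxD_97 lie in the 3′ flank. A large part of the 21 pairs between these windows thus held a flank fragment. Contacts between the Hoxd13 and Hoxd3 windows fell to 0.159 and 0.262 reads per 1000 in Eed-/- libraries, against 0.766 and 0.786 in wild-type libraries (-1.83 ± 0.38, limma adjusted p = 0.00205). GCR with Lnp was at 0.0734 and 0.120 in Eed-/- libraries, against 0.0720 and 0.0888 in wild-type libraries (0.19 ± 0.30, adjusted p = 0.585). Prox, a digit enhancer between Lnp and Evx2, with Hoxd10 was at 0.0799 and 0.0925 in Eed-/- libraries, against 0.125 and 0.112 in wild-type libraries (-0.38 ± 0.31, adjusted p = 0.409). Hoxd3 with the Mtx2 promoter window was at 0.461 and 0.319 in Eed-/- libraries, against 0.460 and 0.267 in wild-type libraries (0.12 ± 0.39, adjusted p = 0.764).

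Set against other ESCs of the series, the domain enrichment of Eed-/- cells was also lower than that of undifferentiated OS25 cells, at 2.48 and 3.61 (log2 difference -2.08, adjusted p = 0.00115). Cells without Ring1B, the catalytic subunit of PRC1, had 1.35 to 2.57 in 3 libraries. Eed-/- cells were 0.88 ± 0.37 lower than these, which did not pass the test over 11 region readouts (adjusted p = 0.127), with a 95% interval from -1.69 to -0.08.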

How the data were processed

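5C libraries of EcoRI-cut chromatin were sequenced by the authors on an Ion Torrent PGM. They divided the reads of each fragment pair by all reads of the run and multiplied by 1000, so the deposited matrices hold a normalized signal, 1 symmetric matrix per library, on mm9. Aligner and template kit per library are not given in the sources used here. The smallest value of a library was taken as 1 read (all others were whole multiples of it to within 0.0149 reads) and gave the run totals. Primer directions were read from which fragments contact each other. Replicates were no copies of each other (chi-square per degree of freedom 214 between Eed-/- and 123 between wild-type libraries). The paper calls the repeats biological replicates, the labels do not say whether they were separate cultures, and p-values measure the spread between these libraries.

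Means over fragment pairs at least 10 kb apart, zeros included, were tested as log2(mean + 0.02) with limma 3.58.1 (R 4.3.3), two-sided. The spread was taken from all 14 ESC libraries, those of retinoic acid treated cells and of other genotypes included. Fold changes on this scale understate those of low values. Benjamini-Hochberg adjustment was made within each family, with a threshold of 0.05: 11 region readouts (domain enrichment and FISH windows included), 40 region and distance classes, anchors with at least 3 pairs, 20-kb bin pairs and fragment pairs, the last 3 with a mean above 0.02. An exact test of 2 against 2 libraries cannot go below p = 0.333. Genes were placed with GENCODE vM1 on NCBIM37 (mm9). Named were the fragments with annotated starts of Evx2, Hoxd genes, Lnp and Mtx2, and up to 5 anchors, 5 bin pairs and 10 fragment pairs each way with both Eed-/- libraries beyond both wild-type libraries; other anchors and fragments were named after their values were seen. The members, regions and lists were chosen with earlier results of these data known. The planned edgeR fits were not run, since the deposited values are normalized, and limma voom on the reads, chosen after seeing the data, took their place. The fit was also run on simulated reads, whose spread between libraries was set in advance and not taken from these data. That run cannot tell how often the fit is right for these libraries. Other steps ran in Python 3.11.15 (with scipy 1.17.1). The 4 limb libraries were not used here.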

Additional observations from a re-analysis of the deposited data

How the results depend on the processing

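The reduction kept its direction in all 16 alternatives run for each of 3 readouts, which share cluster pairs. Log2 differences ran from -1.95 to -1.11 for the mean inside the cluster and from -2.39 to -1.56 for domain enrichment. For the Hoxd13 and Hoxd3 windows, which include flank fragments, they ran from -2.16 to -1.36. Domain enrichment is a ratio within a library from 10 kb on, without a pseudocount. The rescalings, the pseudocounts and the setting with no minimum distance therefore could not move its value. All 23 cluster anchors stayed below 0 in 19 of 20 settings, mHoxD_93 reaching 0.035 with no minimum distance. Values near 0 depended on the setting, and the cause was not tested.

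Rescaled to pairs at least 10 kb apart, the 5′ and 3′ flanks stood at 0.46 and 0.46 and passed (adjusted p = 0.026 each), contacts of cluster and 3′ flank at 0.017, with 2 distance classes and 5 anchors higher and 3 bin pairs lower. This scaling shifted the median of all anchors by 0.18, and 12 anchors were lower and 5 higher (70.6% lower, against 90.0%). Rescaled to flank pairs, the shift was -0.21 with 24 lower and 1 higher (96.0%), contacts between the flanks stood at -0.014, GCR with Lnp at -0.041, Hoxd3 with Mtx2P at -0.15, and 11 bin pairs were lower. With regions set by midpoint, contacts of cluster and 5′ flank passed at -0.69 (adjusted p = 0.0426). With primer factors the 5′ flank stood at -0.048, contacts between the flanks at -0.079, Hoxd3 with Mtx2P at -0.045 and the pair mHoxD_67 with mHoxD_75 at 0.23; 3 distance classes (3 of them in the cluster), 8 cluster anchors and 3 bin pairs were lower, and 1 anchor and 1 bin pair higher. With OS25 as the reference, GCR with Lnp stood at -0.017, Hoxd3 with Mtx2P at -0.12 and mHoxD_125 with mHoxD_169 at -0.69, with 0 anchors and 1 bin pair higher.

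With no minimum distance 3 anchors (3 in the cluster) and 3 bin pairs were lower, 0 anchors were higher, and the bin pair at 74301352 stood at 0.29. A pseudocount of 0.005 left 1 anchor and 1 bin pair higher, and one of 0.1 gave 11 bin pairs and 2 fragment pairs lower. Bins shifted by 10 kb gave 0 lower. With only the 4 libraries in the fit, 0 bin pairs were lower and 0 higher, against 74 and 53 fragment pairs; with no filter on low values 8 fragment pairs were lower and 8 higher. Among fits chosen after seeing the data, the mean-variance trend gave 1 anchor higher, 11 bin pairs and 3 fragment pairs lower, and voom on the reads 1 anchor higher, 15 bin pairs lower, and 126 fragment pairs lower against 108 higher.

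Leaving out 1 library left 0 to 8 anchors lower (0 to 6 in the cluster), 0 to 2 higher, 0 to 1 bin pairs lower and 0 higher. Over these fits Hoxd3 with Mtx2P ranged from -0.25 (without the second wild-type library) to 0.49 and stood at -0.13 without the first Eed-/- library, GCR with Lnp ranged from -0.10 (without the second Eed-/- library) to 0.48, and mHoxD_67 with mHoxD_75 from -1.17 to 0.17 (without the first Eed-/- library). The labels number no pairs across groups, and deviations of first and repeat libraries correlated at 0.02. A replicate block gave 22 anchors lower (17 in the cluster) and 2 higher, and 0 bin pairs lower and 0 higher. The planned edgeR fits were not run. Of pairs at least 10 kb apart, 59.2% to 62.7% held no read in a library, most in the deepest of the 4.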
